A study of Mus musculus with 20 samples.

Results

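Interferon-stimulated genes are the genes that cells switch on when type I, type II or type III interferon binds its receptor. A list of 36 such genes, matched by symbol in the gene expression table, was followed through mouse livers with and without the deacetylase gene Sirt2 and with and without intermittent cold. All 36 were found among the 45306 genes of the table, and all 36 passed the filter on low counts. The liver libraries fell into 4 groups of 5: Control (wild-type mice kept at room temperature), CE (wild-type mice exposed to cold), Sirt2-/- (Sirt2 knockout mice kept at room temperature) and Sirt2-/-/CE (Sirt2 knockout mice exposed to cold). Cold exposure was 4 °C for 3 h per day over 3 weeks, and the mice, all of a C57BL/6 background, are described as 5 weeks old when the groups were formed. The knockout was made by injecting a ribonucleoprotein aimed at exons 5 to 7 into fertilised eggs, so the edit was made in the whole animal and not in the liver alone. Libraries are numbered 1 to 20 in the labels, and each is called a mouse here, although the labels do not say that each came from its own animal, so the p-values measure the spread between libraries.

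Interferon receptors signal through JAK kinases to transcription factors of the STAT family. Type I and type III interferons bring STAT2 and IRF9 into a complex that binds the interferon-stimulated response element (ISRE) in front of its target genes, whereas type II interferon acts mainly through the gamma-activated site (GAS). The targets include sensors of viral nucleic acids, proteins that block viral translation and assembly, GTPases that attack the vacuoles of intracellular microbes, and the proteasome subunits and transporter that prepare peptides for MHC class I. A low level of these transcripts is found in healthy liver, in hepatocytes and in the Kupffer and endothelial cells around them.

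The ISRE is visible in the sequences in front of several members. RefSeq promoter windows of build GRCm38.p6, each running from 250 bases before to 50 bases after a gene's start, were at hand for 27 of the 36 members, of which Gbp3, Ifit2, Irf1 and Irf9 had 2 windows each, and all were searched on both strands. The ISRE core, which is GAAA, any 2 bases and GAAA again, was present in a window of 15 of the 27 members (55.6%), against 3.99% of the 27025 genes with a window. The GAS letters, which are TTC and GAA with any 3 bases between, were present for 8 of the 27 (29.6%), against 9.55% of the genes with a window. The 160 bases in front of the start are shown for 3 members that moved closely with the others from mouse to mouse (Isg15, Ifit1 and Ifit3), for Oas1a, and for Bst2, the member with the highest level, which followed the others little. The windows lie at chr4:156200819-156200978 (minus strand), chr19:34640729-34640888 (plus strand), chr19:34583369-34583528 (plus strand), chr5:120907526-120907685 (minus strand) and chr8:71537473-71537632 (minus strand). Each is written 5′ to 3′ on the gene's own strand, with every base that falls in an ISRE core in capitals.
Isg15: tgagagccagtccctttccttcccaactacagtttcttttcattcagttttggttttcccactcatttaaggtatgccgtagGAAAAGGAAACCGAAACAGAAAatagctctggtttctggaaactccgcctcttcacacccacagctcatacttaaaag
Ifit1: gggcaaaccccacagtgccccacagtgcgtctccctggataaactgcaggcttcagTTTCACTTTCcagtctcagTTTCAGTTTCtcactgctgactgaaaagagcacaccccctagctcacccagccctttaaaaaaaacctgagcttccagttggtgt
Ifit3: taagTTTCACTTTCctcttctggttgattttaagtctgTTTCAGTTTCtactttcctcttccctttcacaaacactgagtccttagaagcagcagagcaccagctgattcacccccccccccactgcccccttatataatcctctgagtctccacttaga
Oas1a: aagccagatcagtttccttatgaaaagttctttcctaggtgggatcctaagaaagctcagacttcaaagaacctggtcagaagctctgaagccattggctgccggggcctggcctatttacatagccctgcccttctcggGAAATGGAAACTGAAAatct
Bst2: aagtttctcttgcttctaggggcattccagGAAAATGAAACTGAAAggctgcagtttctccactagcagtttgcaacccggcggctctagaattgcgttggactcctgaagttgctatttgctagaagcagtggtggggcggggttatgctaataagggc
Isg15 held 3 overlapping copies of the core, Oas1a and Bst2 held 2 overlapping copies, and Ifit1 and Ifit3 held 2 separate copies. A match of letters is a description of the sequence and was not tested as a binding site.

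The libraries held 35499796 to 53917339 reads assigned to genes. Levels are given as CPM, the count of a gene scaled by library size and TMM factor, which is the scale on which groups were tested. FPKM, which is also divided by transcript length, is used where 1 gene is compared with another. The hepatocyte markers Alb, Apoa1, Ttr, Cps1 and Cyp2e1 stood between 461.4 and 63344.0 FPKM in every library. Sirt2 itself measured 42.4, 41.6, 44.5, 41.3 and 41.5 CPM in the Control mice and 43.4, 45.2, 56.2, 40.2 and 48 CPM in the CE mice. Knockout livers held Sirt2 at 17.3, 21.3, 26.6, 27.5 and 16.9 CPM in the Sirt2-/- mice and 27.5, 19.4, 20.8, 19 and 21.1 CPM in the Sirt2-/-/CE mice. It fell in both genotype comparisons, by 0.94 ± 0.15 (SE) on the log2 scale in Sirt2-/- against Control (adjusted p = 0.0145) and by 1.11 ± 0.15 (SE) in Sirt2-/-/CE against CE (adjusted p = 0.0043), although the latter lost its call when only those 2 groups were fitted (adjusted p = 0.0848). Sirt2 reads were still counted in every knockout liver, where only part of the gene was targeted. Tests were edgeR's quasi-likelihood tests over all 20 libraries, with Benjamini-Hochberg adjustment over the 15616 genes tested and a threshold of 0.05.

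Bst2, which encodes tetherin, a membrane protein that holds budding virus particles at the cell surface, had the highest level of the 36, between 101.5 and 266.4 FPKM in the 20 mice (SD 38.6). Ifi27, which encodes a small mitochondrial protein, stood at 71.7 ± 18 FPKM (SD over 20 mice), and Iigp1, a GTPase of the immunity-related family, at 69.3 ± 26.2 FPKM. The SDs of Ifi27 and Iigp1 overlap. Irgm1 stood at 24.7 FPKM, and the next 15 members lay between 16.6 FPKM (Irf7) and 5.59 FPKM (Ifih1). The lowest were Oas2 at 0.543 ± 0.211 FPKM and Mx1 at 0.284 ± 0.139 FPKM. The least counted member, Mx1, had 10 reads in its lowest library and 86 in its highest. Between the lowest and the highest of the 20 mice, the CPM of a member varied from 1.84-fold (Stat2) to 12.1-fold (Ifi44), with 10-fold for Irf7 and 9.81-fold for Ifit1.

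**Figure D1:**
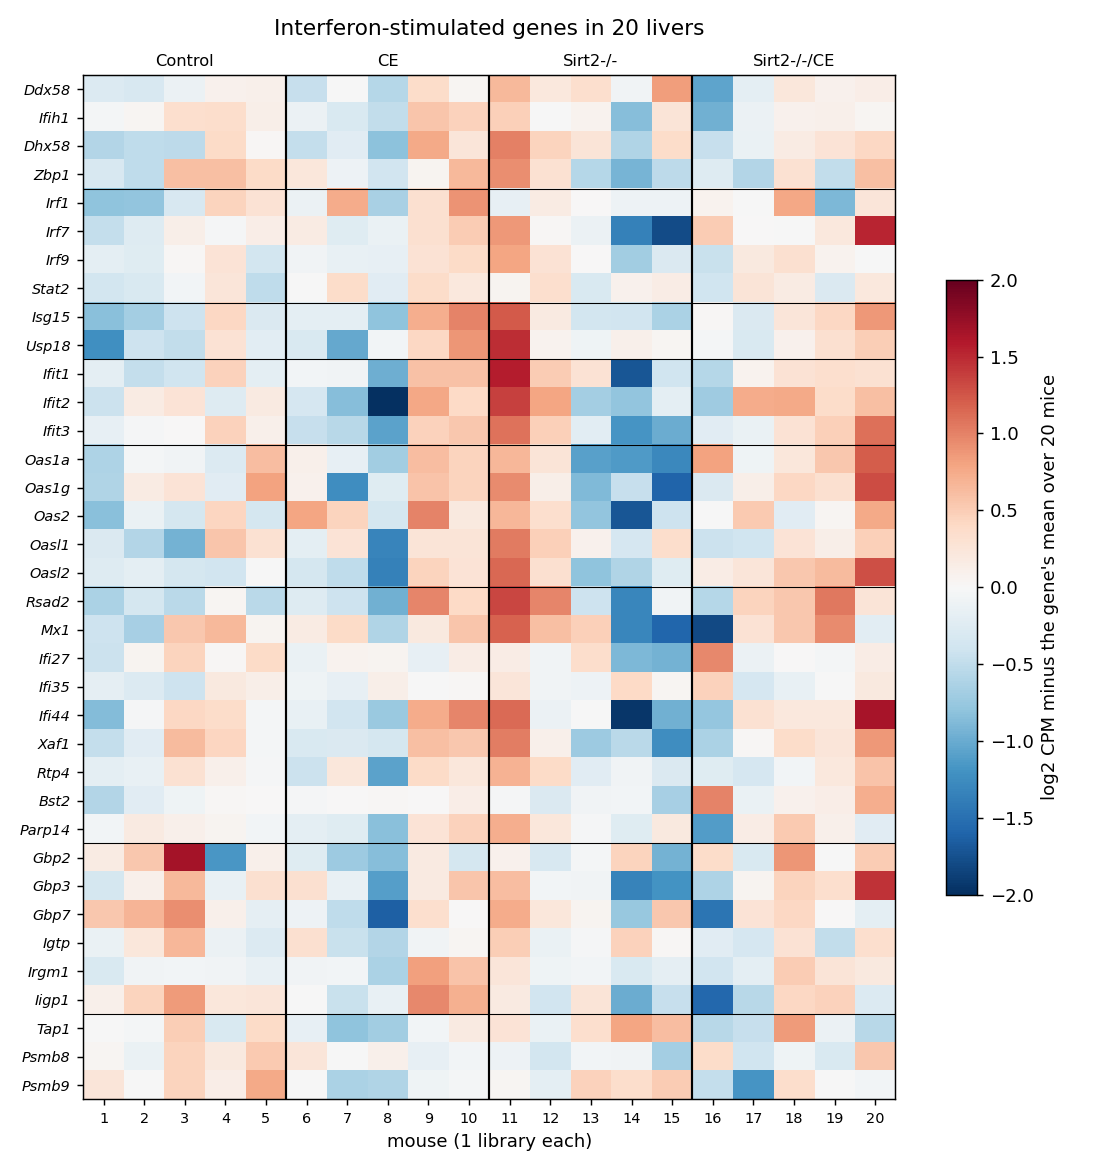
Level of each of the 36 genes (rows, in order of role, with lines between roles) in each of the 20 mice (columns, with lines between groups). The scale is log2 CPM minus that gene's average across all mice, from blue (below the mean) to red (above). Whole columns share a colour more than whole groups do: mouse 11 is mostly red, mice 8 and 14 are mostly blue, and each lies in a group with mice of the opposite colour.

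None of the 36 members passed the adjusted threshold in any of the 4 comparisons between groups or in the interaction of genotype with cold. In wild-type mice, CE against Control asks what cold does when Sirt2 is present. There 0 of 36 members were called, and 0.0064% of all genes tested. Without adjustment, 2 members had p under 0.05, both fitted lower, which is 5.6% of 36 against 10.7% of all genes. DESeq2 called 0 members (1.05% of all genes) and limma voom with quality weights called 0 (3.46%). The median log2 fold change was 0.03 over the members and -0.008 over all genes, with 19 members fitted higher, where 49% of all genes were. The members' median turned negative without mouse 1 (-0.04), 2 (-0.05), 9 (-0.09) or 10 (-0.07).

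Sirt2-/- against Control asks what the knockout does at room temperature. Again 0 members were called, against 0.89% of all genes. At unadjusted p under 0.05 there were 3 members, 2 fitted higher and 1 lower, which is 8.3% against 14.9% of all genes. DESeq2 called 0 members (3.89% of all genes). Limma voom called 2, Dhx58 and Ddx58, a share of 5.6% where it called 5.8% of all genes. The median was 0.07 over the members and 0.017 over all genes, with 20 members fitted higher (51.7% of all genes). With libraries scaled by size alone 26 members were fitted higher. That setting also shifted the median of all genes by 0.14, and its share of all genes above 0 is not given here. The members' median was higher with that scaling and under voom, as given in the last section. Without mouse 11 the members' median was -0.07, and without mouse 1 it was -0.01.

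Sirt2-/-/CE against Sirt2-/- asks what cold does without Sirt2. Here 0 members were called, and 0% of all genes. Of the 36, 3 had an unadjusted p under 0.05, 2 fitted higher and 1 lower, which is 8.3% against 7.25%. DESeq2 called 0 members and 0.0441% of all genes, and voom called 0 of either. The median was 0.06 against 0.006 over all genes, with 19 members fitted higher (50.9% of all genes). It turned negative without mouse 13 (-0.03), 14 (-0.06), 15 (-0.04) or 18 (-0.03), and was 0.30 without mouse 11.

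Sirt2-/-/CE against CE asks what the knockout does under cold. It had 0 members called and 0.0128% of all genes. The 2 members at unadjusted p under 0.05, both fitted higher, make 5.6% against 6.09%. DESeq2 and voom called 0 members, with 0.21% and 0.0128% of all genes. The median was 0.08 against 0.017 over all genes, and 27 members were fitted higher, where 52.6% of all genes were. The members' median was -0.02 without mouse 8, the lowest of the 20 for the Kupffer, endothelial and stellate cell marker sums, and -0.02 without mouse 20. These 27 are not independent of one another, since the members varied together between mice. Markers of endothelial and Kupffer cells were fitted higher in the same comparison, although 0 of them passed. All 4 endothelial markers were above 0, with a median log2 fold change of 1.25 and an unadjusted p under 0.05 for 4 of 4, and their summed level was 25.3 to 121.9 CPM in the CE mice and 127.1 to 200.7 CPM in the Sirt2-/-/CE mice, without overlap. The 6 Kupffer cell markers were all above 0 as well, with a median of 0.79 and an unadjusted p under 0.05 for 4 of 6, and their sums of 94.9 to 364.3 CPM and 258.5 to 424.9 CPM overlapped. Of the stellate cell markers 3 of 4 were above 0 (median 0.60), and of the tested T and NK cell markers 5 of 8 (0.03). The B cell list had 1 of 4 above 0 (-0.10), and the monocyte and neutrophil list 1 of 3 tested (-0.07). The 26 tested leukocyte markers of all lists together had 17 above 0 (0.10). The part of these cells in the members' values was not tested.

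The interaction asks whether cold moved a gene differently in the 2 genotypes. It had 0 members called and 0% of all genes. A single member had an unadjusted p under 0.05, which is 2.8% against 8.34%. DESeq2 and voom called 0 members, with 0.271% and 0% of all genes. The median was -0.01 against 0.002 over all genes, with 17 members fitted above 0 (50.2% of all genes). It ran from -0.10 without mouse 20 to 0.12 without mouse 11. In none of the 4 comparisons did the 5 mice of one group lie wholly above or below the 5 of the other for any member. Of all genes, 3.04% did so for CE and Control, 3.61% for Sirt2-/- and Control, 0.743% for Sirt2-/-/CE and Sirt2-/-, and 1.22% for Sirt2-/-/CE and CE. Between Sirt2-/-/CE and Control, which differ in both genotype and cold and were not tested against each other, the groups did not overlap for 1 member, Oasl2 (2.71% of all genes), and between Sirt2-/- and CE for 0 members (1.88% of all genes). The comparisons share groups, so their values are not independent of one another.

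Limma voom gave more members an unadjusted p under 0.05 than edgeR in 3 of the 5. It gave 7 of 36 in CE against Control (19.4%, with 20.8% of all genes), 10 in Sirt2-/- against Control (27.8%, with 23.1%) and 2 in the interaction (5.56%, with 13.3%). It gave 1 (2.78%) in each of Sirt2-/-/CE against Sirt2-/- and Sirt2-/-/CE against CE, with 6.44% and 7.97% of all genes. DESeq2 gave 3, 3, 4, 2 and 1 members in CE against Control, Sirt2-/- against Control, Sirt2-/-/CE against Sirt2-/-, Sirt2-/-/CE against CE and the interaction, where 7.56%, 10.5%, 5.41%, 4.7% and 6.15% of the 25849 genes with a DESeq2 p did so.

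The size of what could be seen is set by the spread between mice. Standard errors of the members' log2 fold changes ran from 0.16 to 0.50 with a median of 0.34 in each of the 4 comparisons, and to 0.70 in the interaction. Within a group, the SD of a member's log2 CPM had a median of 0.57, against 0.43 over all genes tested, and ran from 0.24 for Ifi35 to 0.83 for Ifi44 and Mx1. These medians were not matched for level, and counting error, which is larger at low counts, is part of both. A fitted difference beyond 1 on the log2 scale was found for 1 member, Gbp2, in the interaction (11% of all genes). It was found for 0 members in the comparisons of CE with Control (6.54% of all genes), Sirt2-/- with Control (7.72%), Sirt2-/-/CE with Sirt2-/- (4.57%) and Sirt2-/-/CE with CE (6.1%). Because these are whole livers, fewer cells of a type and less RNA per cell cannot be told apart in any of these values.

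**Figure D2:**
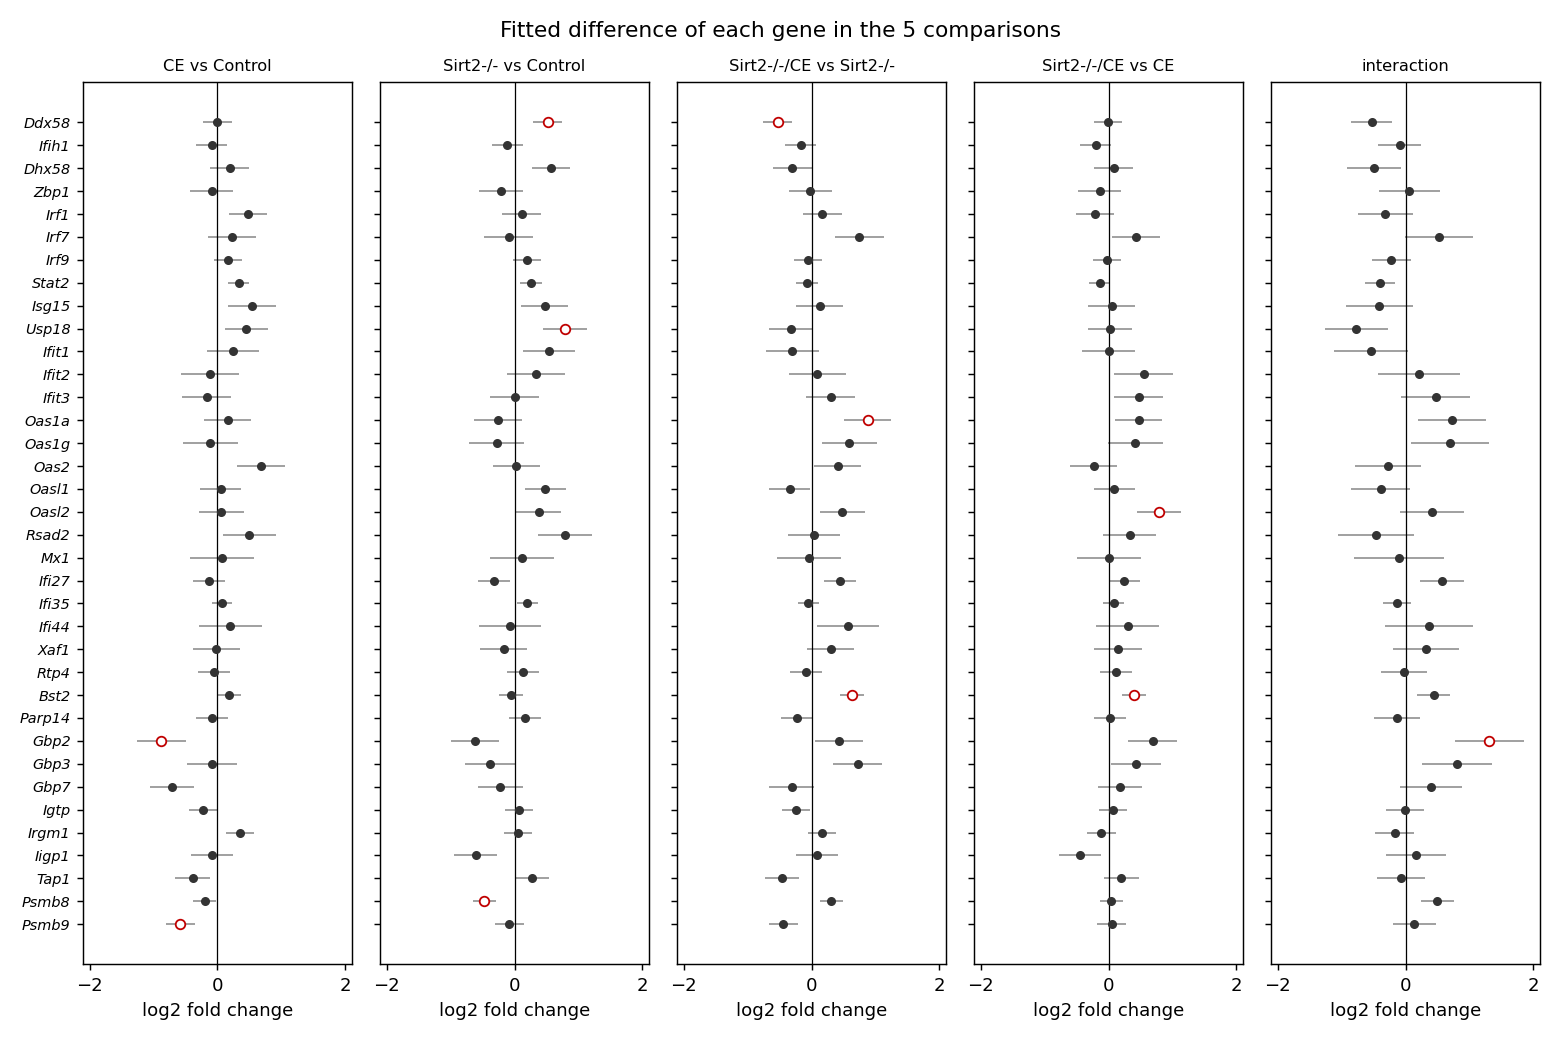
Fitted log2 fold change of each of the 36 genes (rows, in the order of the heat map) in the 4 comparisons and the interaction (panels), with horizontal lines for 1 SE to either side. Open red circles have an unadjusted p under 0.05 and closed points do not, and no point passed the adjusted threshold.

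The sensors of nucleic acids are Ddx58 (RIG-I) and Ifih1 (MDA5), helicases that bind viral RNA in the cytoplasm, Dhx58 (LGP2), which modulates both, and Zbp1, which binds left-handed nucleic acids. Ddx58 measured 18.6, 18.1, 20.8, 24 and 24.1 CPM in the Control mice and 16.4, 22.3, 15.1, 29 and 23 CPM in the CE mice. Knockout livers held Ddx58 at 35.4, 26.1, 28.3, 21.4 and 40.2 CPM in the Sirt2-/- mice and 10.8, 19.6, 26.3, 24 and 24.6 CPM in the Sirt2-/-/CE mice. The Sirt2-/- mice were on the high side, with 4 of the 5 above every Control mouse, and mouse 16 was the lowest of the 20. The log2 fold change was 0.52 ± 0.23 (SE, unadjusted p = 0.0316, adjusted p = 0.276) in Sirt2-/- against Control and -0.53 ± 0.23 (SE, unadjusted p = 0.0302, adjusted p = 0.646) in Sirt2-/-/CE against Sirt2-/-. Without mouse 16 the second was -0.35, a smaller difference by more than 1.5 times. Under limma voom with quality weights Ddx58 passed in Sirt2-/- against Control (0.59, adjusted p = 0.0388), as did Dhx58 (0.90, adjusted p = 0.0275), which edgeR fitted at 0.57 (adjusted p = 0.385). The groups overlapped for Dhx58, with 5.65 to 11.1 CPM in the Control mice and 5.62 to 17.1 CPM in the Sirt2-/- mice. Ifih1 and Zbp1 were fitted at -0.11 and -0.21 in that comparison.

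Of the transcription factors, Stat2 and Irf9 encode parts of the ISRE-binding complex, Irf7 amplifies the type I response and is itself interferon-induced, and Irf1 acts mainly in the type II response. All 4 were fitted higher in CE than in Control, where 49% of all genes were, with log2 fold changes from 0.16 to 0.48, and 0 of 4 passed, with unadjusted p above 0.05 for each. Stat2 measured 29.6, 30.9, 36.6, 45.2 and 26.8 CPM in the Control mice and 38, 49.4, 32.5, 49 and 44.2 CPM in the CE mice. Knockout livers held Stat2 at 39.7, 48.2, 30.8, 40.7 and 42.5 CPM in the Sirt2-/- mice and 28.8, 45.4, 42.9, 31.3 and 44.3 CPM in the Sirt2-/-/CE mice. Its groups overlapped throughout, and the difference with the lowest p was 0.33 ± 0.17 (SE, unadjusted p = 0.0678, adjusted p = 0.521) in CE against Control. Irf9 measured 22.6, 21.9, 26.2, 31.4 and 20.1 CPM in the Control mice and 24.8, 23.3, 23.1, 31.5 and 33.8 CPM in the CE mice. Knockout livers held Irf9 at 44.6, 31.8, 26, 16 and 21.3 CPM in the Sirt2-/- mice and 19.1, 29.7, 32.2, 27.1 and 25.8 CPM in the Sirt2-/-/CE mice. Mouse 11 was the highest of the 20, and the Sirt2-/- against Control fit of 0.19 ± 0.22 (SE, unadjusted p = 0.387, adjusted p = 0.739) turned to -0.04 without that mouse. Irf7 measured 23.4, 27.3, 35.5, 32.2 and 35.6 CPM in the Control mice and 36.7, 27.5, 29.8, 40.8 and 46.1 CPM in the CE mice. Knockout livers held Irf7 at 59.4, 33.1, 30, 12.8 and 9.39 CPM in the Sirt2-/- mice and 46.2, 32.9, 32.3, 37.8 and 94 CPM in the Sirt2-/-/CE mice. Mice 14 and 15, both Sirt2-/-, were the lowest of the 20 and mouse 20, a Sirt2-/-/CE mouse, was the highest. The Sirt2-/-/CE against Sirt2-/- fit was 0.75 ± 0.38 (SE, unadjusted p = 0.0624, adjusted p = 0.705), 0.38 without mouse 20 and 1.19 without mouse 11. Irf1 measured 12.1, 12.3, 17, 29 and 26 CPM in the Control mice and 19.6, 35.7, 13.6, 26.5 and 39.5 CPM in the CE mice. Knockout livers held Irf1 at 19, 23.7, 21.4, 19.7 and 19.8 CPM in the Sirt2-/- mice and 22.4, 21.2, 36.2, 11.4 and 25.1 CPM in the Sirt2-/-/CE mice. The 4 groups overlapped for Irf1 too, and its lowest p stood beside a log2 fold change of 0.48 ± 0.30 (SE, unadjusted p = 0.127, adjusted p = 0.623) in CE against Control, which was 0.31 without mouse 10.

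Isg15 encodes a ubiquitin-like modifier that is attached to newly made proteins, and Usp18 the protease that removes it and that also damps the type I receptor. Isg15 measured 4.97, 5.55, 6.69, 11.9 and 7.32 CPM in the Control mice and 7.77, 7.80, 5.12, 14.7 and 17.7 CPM in the CE mice. Knockout livers held Isg15 at 20.8, 10.1, 6.89, 6.82 and 5.76 CPM in the Sirt2-/- mice and 9.04, 7.30, 10.5, 11.9 and 16.3 CPM in the Sirt2-/-/CE mice. Mouse 11 stood highest, and mice 10, 20 and 9 followed, so that each group but Control held at least 1 of the 4 highest. The fit for CE against Control was 0.54 ± 0.37 (SE, unadjusted p = 0.158, adjusted p = 0.656), and 0.28 without mouse 10. Usp18 measured 5.47, 9.58, 9.08, 15.6 and 11.1 CPM in the Control mice and 10.3, 6.31, 12.3, 17.1 and 23.5 CPM in the CE mice. Knockout livers held Usp18 at 35.5, 13.4, 12, 13.7 and 13.1 CPM in the Sirt2-/- mice and 12.5, 10.3, 13.5, 16 and 18 CPM in the Sirt2-/-/CE mice. Mouse 11 was the highest of the 20, and the other 4 Sirt2-/- mice lay between 12 and 13.7 CPM, inside the ranges of the Control, CE and Sirt2-/-/CE mice. The Sirt2-/- against Control difference was 0.79 ± 0.34 (SE, unadjusted p = 0.033, adjusted p = 0.28), and 0.36 without mouse 11 (adjusted p = 0.607).

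The IFIT proteins bind viral RNA ends and block their translation. Ifit1 measured 6.44, 5.29, 5.60, 10.2 and 6.47 CPM in the Control mice and 7.10, 7.03, 3.73, 11.1 and 11.1 CPM in the CE mice. Knockout livers held Ifit1 at 22, 10.5, 9.05, 2.25 and 5.62 CPM in the Sirt2-/- mice and 4.99, 7.73, 9.02, 9.27 and 9.11 CPM in the Sirt2-/-/CE mice. The Sirt2-/- mice spanned from the lowest to the highest value of the 20, and the Sirt2-/- against Control difference of 0.54 ± 0.41 (SE, unadjusted p = 0.201, adjusted p = 0.578) was 0.01 without mouse 11. Ifit2 and Ifit3, which lie beside Ifit1 on chromosome 19, had log2 fold changes from -0.17 to 0.55 over the 4 comparisons. Ifit3 shares 97.8% of its bases over 1700 bases with a near copy, Ifit3b, so reads could be split between the 2 during counting. Ifit3 held 71.1% to 81.9% of the reads of the pair.

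Oligoadenylate synthetases make the short adenylate chains that activate RNase L, which then cuts viral and cellular RNA. Oas1a measured 2.52, 3.77, 3.68, 3.20 and 5.93 CPM in the Control mice and 4.15, 3.47, 2.40, 5.97 and 5.29 CPM in the CE mice. Knockout livers held Oas1a at 6.18, 4.62, 1.83, 1.77 and 1.58 CPM in the Sirt2-/- mice and 6.75, 3.66, 4.53, 5.65 and 8.94 CPM in the Sirt2-/-/CE mice. In the Sirt2-/- group, mice 13, 14 and 15 were below 2 CPM, under every other mouse of the 20, while mice 11 and 12 were within the range of the Sirt2-/-/CE group. The fit for Sirt2-/-/CE against Sirt2-/- was 0.88 ± 0.37 (SE, unadjusted p = 0.0282, adjusted p = 0.635), and it was 1.27 without mouse 11. Oas1a and Oas1g are 97.6% identical over 1861 bases, and the split of reads between them is uncertain. Oasl2, a synthetase-like protein, measured 3.01, 3.14, 2.81, 2.75 and 3.58 CPM in the Control mice and 2.80, 2.51, 1.41, 4.87 and 4.35 CPM in the CE mice. Knockout livers held Oasl2 at 7.95, 4.46, 2.05, 2.35 and 3.04 CPM in the Sirt2-/- mice and 3.97, 4.24, 5.18, 5.58 and 8.72 CPM in the Sirt2-/-/CE mice. Mouse 20 was the highest and mouse 8 the lowest, and the Sirt2-/-/CE against CE difference was 0.79 ± 0.35 (SE, unadjusted p = 0.0353, adjusted p = 0.754). Over the family, 4 of 5 members were fitted higher in Sirt2-/-/CE than in either Sirt2-/- or CE, where 50.9% and 52.6% of all genes were. The exceptions were Oasl1 (-0.34) in the first and Oas2 (-0.23) in the second, and 0 of 5 passed in either.

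**Figure D3:**
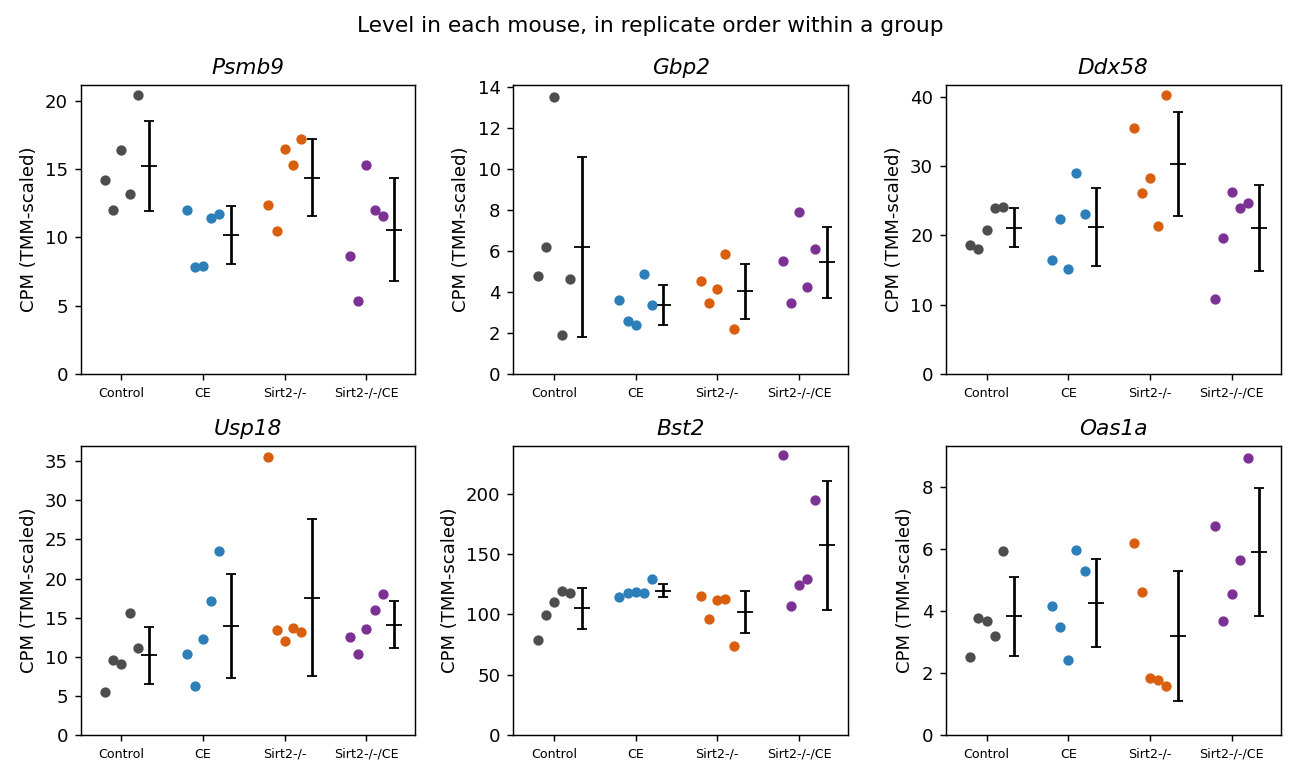
CPM after TMM scaling of 6 members in each mouse (points, 5 per group in replicate order), with the group mean and SD beside the points as a black bar, on axes that start at 0. The groups overlap in every panel, and single mice stand out: mouse 11 for Usp18 (35.5 CPM), mice 16 and 20 for Bst2 (232.1 and 194.9 CPM) and mouse 3 for Gbp2 (13.5 CPM).

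Bst2 measured 78.4, 99.6, 110.3, 119.7 and 118.1 CPM in the Control mice and 114.8, 117.6, 118.5, 117.7 and 129.1 CPM in the CE mice. Knockout livers held Bst2 at 115.1, 96.4, 112.0, 112.7 and 73.8 CPM in the Sirt2-/- mice and 232.1, 107.1, 124.0, 129.1 and 194.9 CPM in the Sirt2-/-/CE mice. Mice 16 and 20 lay above all the others, none of which passed 129.1 CPM, and the other 3 Sirt2-/-/CE mice overlapped the CE group. In Sirt2-/-/CE against Sirt2-/- it had the lowest unadjusted p of any member in any comparison, with a log2 fold change of 0.63 ± 0.19 (SE, unadjusted p = 0.00318, adjusted p = 0.503). Against CE the Sirt2-/-/CE mice differed by 0.40 ± 0.19 (SE, unadjusted p = 0.0457, adjusted p = 0.802), and by 0.21 without mouse 16. The interaction for Bst2 was 0.44 ± 0.26 (SE, unadjusted p = 0.109, adjusted p = 0.687), and 0.27 without mouse 16. Ifi27 measured 50.1, 70.1, 91.1, 68.3 and 87.7 CPM in the Control mice and 61.1, 70.8, 69.6, 60.1 and 74.6 CPM in the CE mice. Knockout livers held Ifi27 at 74.4, 63.9, 85.6, 36 and 34.9 CPM in the Sirt2-/- mice and 130.4, 62.2, 67.8, 65.6 and 74.3 CPM in the Sirt2-/-/CE mice. Here mouse 16 again lay far above the others and mice 14 and 15 below them, and the fit for Sirt2-/-/CE against Sirt2-/- of 0.44 ± 0.25 (SE, unadjusted p = 0.089, adjusted p = 0.735) became 0.20 without mouse 16. The other antiviral members, among them Rsad2 (viperin, which makes a chain-terminating nucleotide), Mx1, Xaf1, Rtp4, Parp14, Ifi35 and Ifi44, had log2 fold changes from -0.23 to 0.79 over the 4 comparisons. In Sirt2-/-/CE against CE all 9 members of this group were fitted above 0, from 0.01 to 0.40, where 52.6% of all genes were above 0, and 0 of 9 passed. Mx1 is 95.3% identical to Mx2 over 843 bases, and held 8.33% to 37% of the reads of the pair.

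The guanylate-binding proteins (Gbp2, Gbp3 and Gbp7) and the immunity-related GTPases (Igtp, Irgm1 and Iigp1) are induced above all by type II interferon and act on membranes around intracellular microbes. Gbp2 measured 4.77, 6.20, 13.5, 1.90 and 4.61 CPM in the Control mice and 3.62, 2.59, 2.38, 4.87 and 3.37 CPM in the CE mice. Knockout livers held Gbp2 at 4.54, 3.44, 4.15, 5.85 and 2.22 CPM in the Sirt2-/- mice and 5.51, 3.47, 7.89, 4.25 and 6.09 CPM in the Sirt2-/-/CE mice. Mouse 3, a Control mouse, held the highest value and mouse 4 of the same group the lowest of the 20. In CE against Control the fit was -0.88 ± 0.38 (SE, unadjusted p = 0.0325, adjusted p = 0.418), which became -0.38 without mouse 3 and -1.11 without mouse 4, and in the interaction it was 1.31 ± 0.54 (SE, unadjusted p = 0.0247, adjusted p = 0.528), 0.81 without mouse 3. The fit in Sirt2-/-/CE against CE was 0.69 ± 0.38 (SE, unadjusted p = 0.0853, adjusted p = 0.882). Gbp7 measured 17.6, 19.4, 23.3, 13 and 10.8 CPM in the Control mice and 11.3, 8.58, 3.93, 15.3 and 12.2 CPM in the CE mice. Knockout livers held Gbp7 at 20.4, 14.3, 12.7, 7.22 and 17.6 CPM in the Sirt2-/- mice and 4.42, 14.7, 16.2, 12.2 and 10.6 CPM in the Sirt2-/-/CE mice. Mice 8 and 16 were the lowest, each under 5 CPM, and CE against Control stood at -0.71 ± 0.35 (SE, unadjusted p = 0.056, adjusted p = 0.485). Iigp1 measured 224.6, 284.1, 378.3, 244.6 and 247.5 CPM in the Control mice and 207.5, 153.8, 188.6, 409.2 and 342.2 CPM in the CE mice. Knockout livers held Iigp1 at 236.1, 160.8, 250.9, 105.1 and 151.6 CPM in the Sirt2-/- mice and 70.3, 143.3, 280.3, 287.4 and 173.7 CPM in the Sirt2-/-/CE mice. Mouse 16 was the lowest of the 20, and each of the other 3 groups reached below the lowest Control mouse. The Sirt2-/- against Control fit was -0.61 ± 0.34 (SE, unadjusted p = 0.0845, adjusted p = 0.41). Of the 6 GTPases, 5 were fitted lower in CE than in Control, Irgm1 being the exception at 0.35, and 0 of 6 passed. Of all genes, 49% were fitted higher there. Markers of several other cell types were fitted lower in CE as well, although 0 of them passed. None of the 8 tested T and NK cell markers was fitted higher (median log2 fold change -0.86), nor any of the 4 B cell markers (-1.12), the 3 tested monocyte and neutrophil markers (-1.23) or the 4 endothelial markers (-0.70), whereas 3 of the 6 Kupffer cell markers were (0.03). Mouse 3, which was the highest for Gbp2, also had the highest summed level of the 20 for T and NK cell markers (9.89 CPM, with 3.22 to 5.08 CPM in the other Control mice) and for monocyte and neutrophil markers (9.57 CPM, with 1.52 to 2.94 CPM). The part of these cells in the GTPase values was not tested.

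Antigen processing was represented by Psmb8 and Psmb9, the catalytic subunits that turn the proteasome into the immunoproteasome, and by Tap1, a subunit of the transporter that carries peptides to MHC class I. Their genes lie side by side on chromosome 17. Psmb9 measured 14.2, 12, 16.4, 13.2 and 20.4 CPM in the Control mice and 12, 7.80, 7.92, 11.4 and 11.7 CPM in the CE mice. Knockout livers held Psmb9 at 12.4, 10.5, 16.5, 15.3 and 17.2 CPM in the Sirt2-/- mice and 8.64, 5.32, 15.3, 12 and 11.6 CPM in the Sirt2-/-/CE mice. Of the 5 CE mice, 4 were below the lowest Control mouse and the fifth stood at the same rounded value, and the log2 fold change was -0.58 ± 0.23 (SE, unadjusted p = 0.0221, adjusted p = 0.372). Psmb8 measured 24.4, 21.7, 32.3, 27.2 and 34.1 CPM in the Control mice and 28.1, 23.7, 25.7, 21.3 and 22.9 CPM in the CE mice. Knockout livers held Psmb8 at 22.3, 18.4, 22.9, 22.8 and 14.8 CPM in the Sirt2-/- mice and 30.6, 18, 22.5, 19.3 and 34.8 CPM in the Sirt2-/-/CE mice. None of the Sirt2-/- mice passed 22.9 CPM, but 3 of them lay above the lowest Control mouse. The Sirt2-/- against Control difference was -0.47 ± 0.18 (SE, unadjusted p = 0.0194, adjusted p = 0.226), with 0.50 ± 0.26 (SE, unadjusted p = 0.0652, adjusted p = 0.619) in the interaction. All 3 genes of this group were fitted lower in CE than in Control (-0.58 to -0.20), where 49% of all genes were fitted higher, and 0 of 3 passed. In the same comparison 5 of the 26 tested leukocyte markers and 0 of the 4 endothelial markers were fitted higher, with medians of -0.60 and -0.70, and the part of these cells was not tested. Psmb9 and Tap1 share 212 bases of exon on opposite strands, and the use of strand in counting is not given in the sources used here.

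The clearer pattern in the 36 genes lay between mice of the same group. The mean of the 36 genes was taken in each mouse, with every gene's log2 CPM centred across the 20 mice first. It was -0.33, -0.14, 0.14, 0.12 and 0.08 in the Control mice and -0.08, -0.23, -0.63, 0.38 and 0.37 in the CE mice. In the knockout it was 0.68, 0.15, -0.13, -0.55 and -0.37 in the Sirt2-/- mice and -0.32, -0.08, 0.30, 0.15 and 0.48 in the Sirt2-/-/CE mice. Each group held mice on both sides of 0, and the group means, -0.03 ± 0.20, -0.04 ± 0.43, -0.04 ± 0.48 and 0.11 ± 0.32 (SD, in the same order), differed by at most 0.15. The range within a group was 0.47 in Control, 1.02 in CE, 1.23 in Sirt2-/- and 0.80 in Sirt2-/-/CE. Mouse 11 had the highest level of its group for 26 of the 36 members and of all 20 mice for 13, whereas mouse 8 had the lowest of its group for 26. Mouse 14 was lowest in its group for 17 members, mouse 16 for 21 and mouse 1 for 21.

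**Figure D4:**
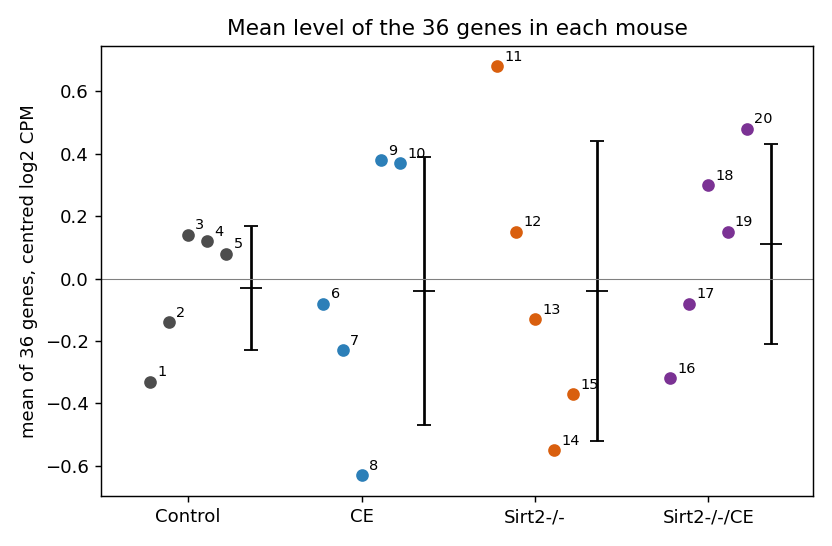
Mean of the 36 genes in each mouse (numbered points), as centred log2 CPM, by group, with the group mean and SD as a black bar. The group means lie within 0.15 of each other and the mice of a group spread over 0.47 to 1.23.

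After each group's mean was removed, the members varied together over the 20 mice. The median Pearson correlation over the 630 pairs of members was 0.46, and 88.1% of the pairs were above 0, where the median over all pairs of tested genes was -0.002 and 49.8% were above 0. These are descriptions over 20 libraries that share 1 scaling, with group means removed. Each member was also set against the mean of the other 35. For 20 members r was above 0.7, led by Ifit3 (0.94), Ifi44 (0.91), Isg15 (0.89), Xaf1 (0.88) and Gbp3 (0.88). The 3 IFIT genes had pairwise r of 0.75 to 0.89, and the 4 sensors of 0.41 to 0.86 (medians 0.78 and 0.72). The medians of the other families were 0.67 for the 5 synthetases (0.34 to 0.84), 0.50 for the 6 GTPases (0.24 to 0.80), 0.35 for the 4 transcription factors (0.03 to 0.59) and 0.28 for the 3 antigen processing genes (-0.07 to 0.74). For 7 members r was under 0.3: Ifi27 (0.25), Psmb9 (0.23), Gbp2 (0.20), Tap1 (0.17), Bst2 (0.16), Psmb8 (0.10) and Ifi35 (-0.09). All 3 antigen processing genes were among the 7, as were the 2 members highest in FPKM. The 15 members with an ISRE core in a promoter window had a median r of 0.76 (0.16 to 0.94), with 9 above 0.7 and 2 under 0.3, and the 12 with a window but no core had a median of 0.72 (-0.09 to 0.91), with 7 above 0.7 and 4 under 0.3. The difference between these sets was not tested.

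**Figure D5:**
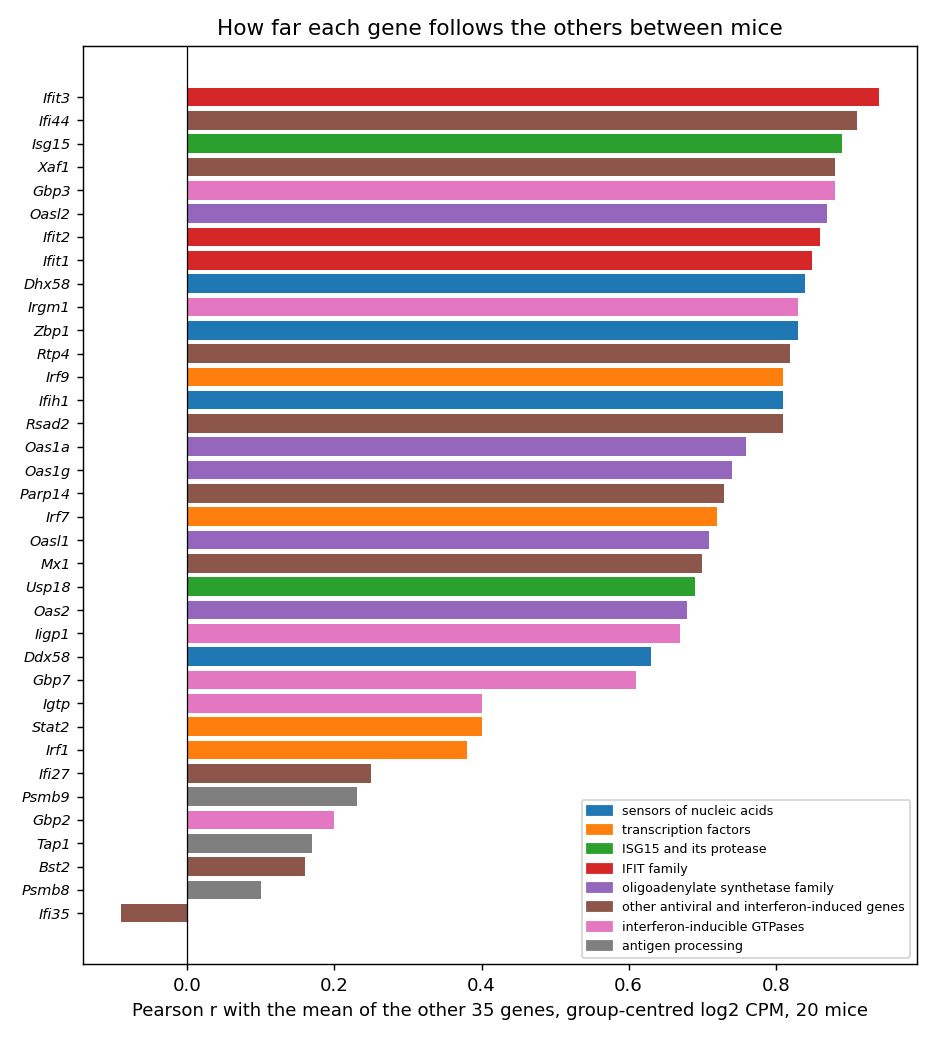
Pearson r of each member with the mean of the other 35 over 20 mice, after removal of group means from log2 CPM, with bars coloured by role. The bars run from 0.94 for Ifit3 to -0.09 for Ifi35, with the 3 antigen processing genes near the bottom.

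Other genes moved with the members in the same way. Among the 10 non-members with the highest r with the members' mean were I830012O16Rik (0.89), Oas3 (0.88), P2ry12 (0.86), Col3a1 (0.84), 1810008I18Rik (0.83), Tlr7 (0.83), Uba7 (0.82), Pyhin1 (0.82) and Mpeg1 (0.80). The first has the gene identifier of Ifit3b, the near-identical copy of Ifit3. Oas3 is a further oligoadenylate synthetase, Uba7 the enzyme that activates ISG15, and Pyhin1 an interferon-inducible nuclear protein. P2ry12 (a purinergic receptor), Tlr7 (a sensor of single-stranded RNA) and Mpeg1 (perforin-2) are known from macrophages, and Col3a1 is a collagen of stellate cells and fibroblasts.

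The markers of non-parenchymal cells moved in part with the mice at either end. Mouse 11, with the highest mean of the members (0.68), had the highest Kupffer cell sum of its group (370.6 CPM) and the highest stellate cell sum of the 20 mice (209.1 CPM). Mouse 9 (0.38) was the highest of the CE mice for the Kupffer (364.3 CPM), endothelial (121.9 CPM) and stellate cell sums (154.9 CPM), whereas mouse 20 (0.48) had the lowest endothelial sum of its group (127.1 CPM). Mouse 8 had the lowest mean of the members (-0.63) and also the lowest summed level of the 6 Kupffer cell markers (94.9 CPM, with 139.6 to 364.3 CPM in the other CE mice), of the 4 endothelial markers (25.3 CPM) and of the 4 stellate cell markers (28.5 CPM), with 0 reads for all 4 B cell markers. Mice 14 and 15, the next lowest in the members' mean, had Kupffer cell sums of 275.7 and 199.4 CPM, where their group ran from 199.4 to 370.6 CPM, and mouse 4, with the lowest Kupffer cell sum of its group (100.3 CPM), had a members' mean of 0.12. Mouse 16 had the highest Kupffer cell sum of the 20 mice (424.9 CPM) but a members' mean of -0.32. The highest endothelial sum, in mouse 17 (200.7 CPM), stood beside a members' mean of -0.08. Mouse 10, with a members' mean of 0.37, had a stellate cell sum of 65.6 CPM, above mouse 8 alone. Over the groups the Kupffer cell sum had medians of 201.5 CPM in Control, 186.7 CPM in CE, 275.7 CPM in Sirt2-/- and 353.9 CPM in Sirt2-/-/CE, and 0 of its 6 markers passed in any comparison. The 26 tested leukocyte markers of all lists together had 0 called in each comparison, and Ly6g, which marks neutrophils, was at 0 in every library. The part of these cells in the members' levels was not tested. Gene length moved with the levels in some libraries as well. Across the 14838 tested genes with an annotated length, Spearman's rho between exon length and a gene's deviation from its group mean was -0.47 in mouse 16, 0.41 in mouse 17, -0.37 in mouse 14 and between -0.25 and 0.31 in the other 17, and over the 36 members it was -0.58 in mouse 16 and 0.62 in mouse 17. Bst2 (903 bases of exon) and Ifi27 (1467 bases) were the highest of the 20 in mouse 16, and Ddx58 (7050 bases) was the lowest there. The part of this trend in single members was not tested. With that trend taken out of each library, the median correlation between members was 0.44.

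Upstream of the members, the interferons themselves were near the limit of counting. Of the 20 rows for interferon genes (alpha, beta, epsilon, gamma, kappa and lambda), 18 had 0 reads in all 20 libraries, which allows up to 3 reads per library or 0.0845 CPM at the lowest depth, and Ifng and Ifnk had 11 and 9 reads in all, in 2 mice each. Among the 78 tested genes of the pathway list (receptors and kinases, factors and adaptors, inhibitors, further induced genes and antigen presentation), 0 passed in CE against Control, 0 in Sirt2-/-/CE against Sirt2-/-, 0 in Sirt2-/-/CE against CE and 0 in the interaction, and 1, Irf2, passed in Sirt2-/- against Control, where it fell. In the same order, 0.0064%, 0%, 0.0128%, 0% and 0.89% of all genes tested passed. At unadjusted p under 0.05 there were 8 of the 78 in CE against Control, 1 higher and 7 lower (10.3%, with 10.7% of all genes), and 14 in Sirt2-/- against Control, 3 higher and 11 lower (17.9%, with 14.9%). There were 6 in Sirt2-/-/CE against Sirt2-/-, 5 higher and 1 lower (7.69%, with 7.25%), and 6 in Sirt2-/-/CE against CE, also 5 higher and 1 lower (7.69%, with 6.09%). In the interaction there were 11, 10 above 0 and 1 below (14.1%, with 8.34%). Irf2, a factor that binds the same element as IRF1 and can oppose it, measured 49.6, 59.2, 60.4, 45.1 and 40.7 CPM in the Control mice and 33.5, 41.1, 43, 47.9 and 43.7 CPM in the CE mice. Knockout livers held Irf2 at 36.3, 33.3, 31.1, 19.1 and 27.1 CPM in the Sirt2-/- mice and 18.3, 30.2, 34.6, 23.7 and 24.9 CPM in the Sirt2-/-/CE mice. All 5 Sirt2-/- mice lay below the lowest Control mouse, and it fell by 0.80 ± 0.18 (SE) on the log2 scale (adjusted p = 0.043), a call that was lost with library size scaling (adjusted p = 0.0719), with no filter on low counts (0.0663) and with only the 2 groups fitted (0.106), and that ranged from 0.0352 to 0.145 without 1 mouse. In Sirt2-/-/CE against CE the fitted value was -0.67 ± 0.18 (adjusted p = 0.426).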

How the data were processed

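Per the labels, polyA-selected liver RNA was sequenced from 20 libraries, and per the study's methods on an Illumina NovaSeq. The authors deposited 1 table of read counts per gene and FPKM values, which they divided by transcript length and depth, on genome build mm10. The aligner, counter and use of strand are not given in the sources used here. Of 45315 rows, 9 named no gene and were left out, leaving 45306 genes (0.359% to 0.618% of reads lay in predicted genes). Groups were taken from the sample titles. Counts were fitted with edgeR 4.0.16 (R 4.3.3; glmQLFit over all 20 libraries, TMM scaling, filterByExpr with a minimum count of 10, 15616 genes, Benjamini-Hochberg adjustment, threshold 0.05), and the fit was tested on simulated data. DESeq2 1.42.0, limma 3.58.1 (voom with quality weights), other scalings, other filters, a fit of only the groups compared and leaving out each mouse were tried. FPKM, deposited by the authors, was used only to compare levels between genes. Log2 CPM used a prior count of 2. Fold changes are on the log2 scale of edgeR. Positions come from GENCODE vM21 (GRCm38), copies from BLAST 2.17.0 matches of at least 95% identity over at least 150 bases, and promoters from RefSeq. The floor of 3 reads covers counting error only. The labels give no batch.

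The members, the lists and the rules were chosen with earlier results of these data known. Every mouse's value is given for members that passed in a comparison (there were 0), for the 3 lowest p of each comparison, for the 3 highest in FPKM and for Irf7, Stat2, Irf9, Irf1, Isg15 and Ifit1, which made 17. Of the pathway list, genes that passed are named, with Sirt2 as the targeted gene and the 10 non-members most like the members' mean, of which 1 is not reported here. The correlation alternatives were chosen after seeing the data.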

Additional observations from a re-analysis of the deposited data

Results flagged for a closer look

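Of 72 sets of 5 mice (17 members and the mean of the 36, in 4 groups), 6 held a mouse whose gap to its nearest neighbour exceeded 0.71 of the group's range. That limit gives about 1 in 20 for independent, normally spread values. The members' values here were CPM without a log, and the members varied together, so 6 of 72 cannot be set against that rate. Mouse 11 of the Sirt2-/- group was high for Usp18, at 35.5 CPM against 12 to 13.7 CPM in the other 4, and for Isg15, at 20.8 CPM against 5.76 to 10.1 CPM. Mouse 16 of the Sirt2-/-/CE group was high for Ifi27, at 130.4 CPM against 62.2 to 74.3 CPM, and mouse 20 of that group was high for Irf7, at 94 CPM against 32.3 to 46.2 CPM. Mouse 10 of the CE group stood at 129.1 CPM for Bst2, where the other 4 lay between 114.8 and 118.5 CPM. Mouse 4 of the Control group stood at 10.2 CPM for Ifit1, against 5.29 to 6.47 CPM. The mean of the 36 genes gave no such mouse in any group, and no member passed the test of the interaction.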

How the results depend on the processing

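The count of members called was 0 in all 5 comparisons under every alternative run except one: limma voom with quality weights called 2 in Sirt2-/- against Control, and the cause was not tested. Leaving out each mouse in turn gave 0 to 0 called throughout, with medians of the members' log2 fold changes from -0.09 to 0.11 in CE against Control, -0.07 to 0.14 in Sirt2-/- against Control, -0.06 to 0.30 in Sirt2-/-/CE against Sirt2-/-, -0.02 to 0.19 in Sirt2-/-/CE against CE and -0.10 to 0.12 in the interaction. The lowest value for Sirt2-/- against Control and the highest for Sirt2-/-/CE against Sirt2-/- both came without mouse 11. Scaling by library size alone shifted the median of all genes by 0.14 in Sirt2-/- against Control, where the members' median was 0.21 and 26 of 36 (72.2%) lay above 0, against 20 (55.6%) with TMM, and voom gave a median of 0.29. The share of all genes above 0 with that scaling and the median of all genes under voom are not given here. In Sirt2-/- against Control, leaving out 1 mouse gave -0.04 to 0.34 for Irf9, with the negative value without mouse 11. The median correlation between members was 0.49 with library size scaling, 0.43 by Spearman, 0.45 without Ifit3, Oas1a, Oas1g, Mx1 and Igtp, 0.50 without the 8 members that match a gene with at least 10 reads in a library (these 5, Psmb9, Tap1 and Xaf1), 0.41 to 0.49 without 1 mouse, and 0.33 without mice 8, 11 and 16 together. No paired analysis was possible because the replicate numbers run from 1 to 20 and no number occurs in more than 1 group.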
